A study of Mus musculus with 16 samples.

Results

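The mouse mitochondrial genome carries 37 genes, of which 13 code for protein, 2 for rRNA and 22 for tRNA. All genes that the annotation places on chromosome M were taken, which gave 37 of the 51060 genes with estimated counts in brown adipose tissue (BAT) of 16 mice. OPA1 BKO mice carried floxed alleles of *Opa1* and a Cre recombinase driven by the *Ucp1* promoter, and WT mice carried the floxed alleles without Cre. All mice were 7 weeks old, and each genotype had 4 females and 4 males. The *Ucp1* promoter restricts Cre to thermogenic adipocytes, whereas whole tissue was sequenced, so vessels, immune cells and other cells that keep *Opa1* are in every library. In such bulk RNA, fewer cells of a type and less RNA per cell cannot be told apart. The libraries were made from polyadenylated RNA, in 13607283 to 23114534 estimated counts per mouse.

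Both strands of the mitochondrial genome are transcribed into long polycistronic RNAs. Most coding genes and both rRNA genes are separated by tRNA genes, and excision of the tRNAs by RNase P and ELAC2 frees the mRNAs and rRNAs. Most mRNAs then receive a poly(A) tail from the poly(A) polymerase MTPAP, and the LRPPRC and SLIRP complex stabilises most mRNAs. The 13 proteins are subunits of oxidative phosphorylation complexes I, III, IV and V, whose other subunits come from nuclear genes. Brown adipocytes are packed with mitochondria, and OPA1 is the dynamin-like protein of the inner membrane that drives its fusion and shapes the cristae. Levels are given as CPM, counts relative to library sizes that were corrected by the TMM method. Changes are log2 fold changes of OPA1 BKO over WT from edgeR's quasi-likelihood test with sex in the model. Adjusted p-values cover all 15632 genes tested, with 0.05 as the threshold.

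Some of these genes overlap, and some end without a full stop codon. The sequences that carry these features are shown here from the GENCODE M21 transcripts on GRCm38, plus strand. The genes *mt-Atp8* and *mt-Atp6* share 43 bases, in capitals in the first line (chrM:7907-7989), and *mt-Nd4l* and *mt-Nd4* share 7, in capitals in the second line (chrM:10147-10193), and each pair is carried by 1 bicistronic mRNA.
mt-Atp8 and mt-Atp6: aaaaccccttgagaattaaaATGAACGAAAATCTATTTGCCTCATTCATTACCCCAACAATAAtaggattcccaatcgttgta
mt-Nd4l and mt-Nd4: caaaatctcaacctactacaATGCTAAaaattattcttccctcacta
The coding sequence of 3 genes ends on a lone T, in capitals below, which the poly(A) tail completes to a stop codon, while 8 genes end on TAA and 2 on TAG. The 3 ends are those of *mt-Co3* (chrM:9361-9390), *mt-Nd4* (chrM:11515-11544) and *mt-Cytb* (chrM:15259-15288), and the end of *mt-Co1* (chrM:6843-6872), with its full stop codon in capitals, is set beside them.
mt-Co3: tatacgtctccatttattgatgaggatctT
mt-Nd4: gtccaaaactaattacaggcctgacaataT
mt-Cytb: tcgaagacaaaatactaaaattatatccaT
mt-Co1: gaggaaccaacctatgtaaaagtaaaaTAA

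A nuclear block on chromosome 1 holds pseudogene copies of 7 of the coding genes, at chr1:24611535-24616197 on the minus strand. They are *Gm29216* (*mt-Co1*), *Gm28661* (*mt-Co2*), *Gm10925* (*mt-Atp6*), *Gm28437* (*mt-Co3*), *Gm28438* (*mt-Nd3*), *Gm10222* (*mt-Nd4l*) and *Gm28439* (*mt-Nd4*). Over the aligned bases, the copies of *mt-Co2* (681 bases), *mt-Atp6* (678 bases), *mt-Co3* (783 bases), *mt-Nd4l* (294 bases) and *mt-Nd4* (876 bases) have 0 mismatches. The copy of *mt-Nd3* has 1 mismatch in 345 bases, T3C counted from the 5′ end of *mt-Nd3*, shown in capitals.
mt-Nd3: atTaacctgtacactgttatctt
Gm28438: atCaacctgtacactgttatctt
*Gm29216* aligns with the last 492 of the 1545 bases of *mt-Co1*, with 6 mismatches. All of these lie from T1056A to A1066T, counted from the 5′ end of *mt-Co1*, near the start of the aligned part. Away from the mismatches, reads from the aligned stretches match gene and copy alike, and kallisto divides them by likelihood. For that reason the 5 coding genes whose copies received counts are given both as deposited and with the counts of the copy added. A copy was a nuclear gene with at least 50% of its words of 31 bases in a mitochondrial gene. The copies lie above that limit at 97.2% to 100% of their words, and the nearest genes below it were *Gm13341* on chromosome 2 at 48.0% (*mt-Co2*) and *Gm13340* at 45.2% (*mt-Co1*). *Gm13340* held 739.7 to 1316 estimated counts in WT mice. In OPA1 BKO mice it held 130.1 to 336. These are at most 91.1 CPM, and *Gm13341* at most 8.17 CPM, which is small beside the mitochondrial genes. The 6 coding genes without a copy shared from 0% (*mt-Nd1*) to 16.8% (*mt-Nd5*) of their words with nuclear genes.

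The targeted gene was checked first. *Opa1* ranged from 152 to 209.6 CPM in WT mice (median 179.7) and from 17.9 to 36.9 CPM in OPA1 BKO mice (median 24.6), and its log2 fold change was -2.82 ± 0.15 (SE), a 7.07-fold lower level (adjusted p = 7.35e-10). Every OPA1 BKO mouse was below every WT mouse, and reads from cells without Cre and from exons outside the deleted part cannot be told apart in the gene's counts.

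The 13 coding transcripts made up 26.2% ± 2.45 of all counts in WT mice and 6.40% ± 1.53 in OPA1 BKO mice (SD, n = 8 each). The lowest WT mouse was at 22.6% and the highest OPA1 BKO mouse at 8.68%, so the genotypes did not overlap (exact permutation test, p = 0.00016, the smallest that 8 mice against 8 allow, adjusted p = 0.000233 over 3 shares). With the nuclear copies added, the shares were 31.8% ± 2.23 and 7.93% ± 1.80 (SD, n = 8 each). Among OPA1 BKO mice, all 37 genes together held 7.28% to 8.96% of counts in females and 4.41% to 6.42% in males, against 23.8% to 28.7% and 23.15% to 30.4% in WT mice. The 2 rRNA genes held 0.361% ± 0.0975 in WT mice against 0.313% ± 0.0623 in OPA1 BKO mice (SD, n = 8 each), a difference within the spread between mice (exact permutation test, p = 0.262, adjusted p = 0.262).

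OPA1 BKO mice had less of all 13 coding transcripts, each past the threshold. Of all genes tested, 20.2% were called lower and 20.8% higher. In 13 of 13, as deposited and with copies added, every OPA1 BKO mouse was below every WT mouse, which held for 4.89% of all genes tested. The median log2 fold change of the 13 was -2.54 as deposited and -2.66 with copies added, beside a median of 0.01 over all genes tested. As deposited, the changes ran from -2.17 in *mt-Nd2* to -3.19 in *mt-Atp6*, and with copies added from -2.17 in *mt-Nd2* to -2.84 in *mt-Atp8*.

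**Figure D1:**
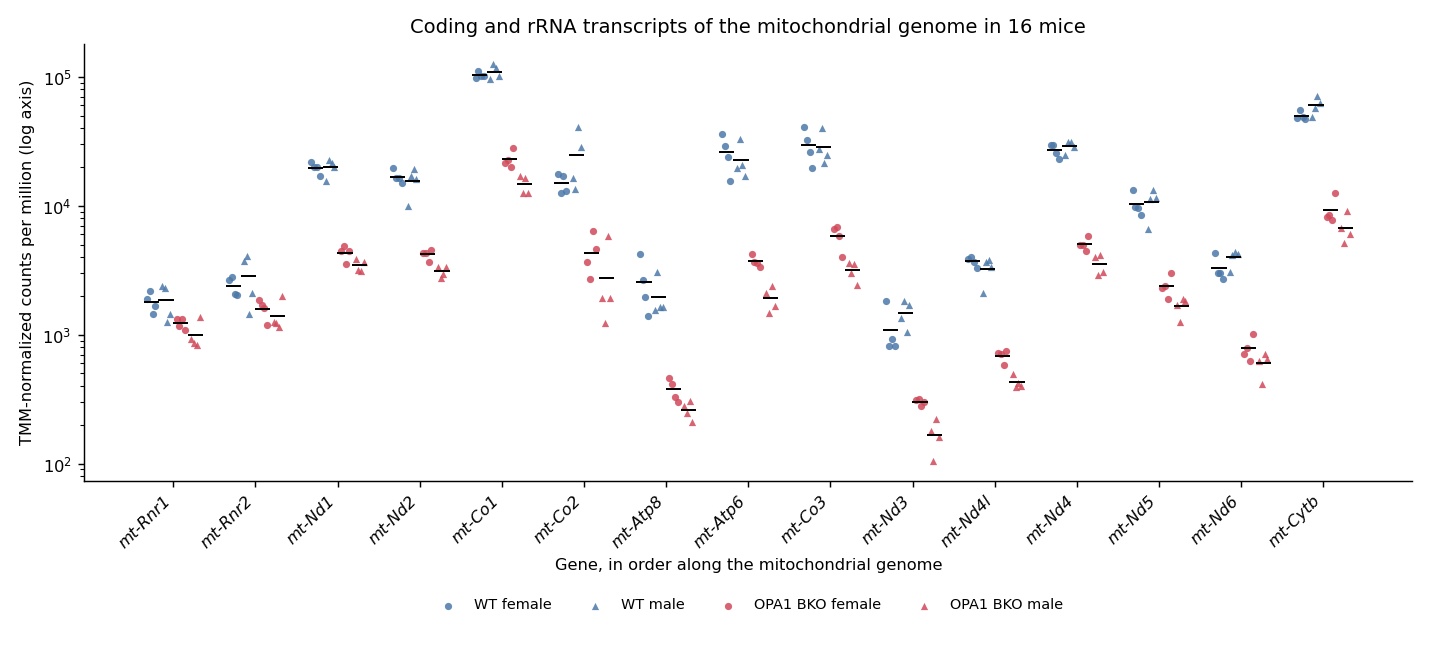
TMM-normalized CPM of the 13 coding and 2 rRNA genes in each of the 16 mice, on a log axis, as deposited. Circles are females and triangles males, and black bars are group means. The OPA1 BKO mice lie below the WT mice in all 13 coding genes, while the genotypes overlap in *mt-Rnr1* and *mt-Rnr2*.

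The mitochondrial genome encodes 7 subunits of complex I, the NADH dehydrogenase. *mt-Nd1*, which lies next to the rRNA genes (chrM:2751-3707), ranged from 15475 to 22697 CPM in WT mice (median 19993) and from 3121 to 4853 CPM in OPA1 BKO mice (median 3756). On the log2 scale the change was -2.36 ± 0.11 (SE), which is 5.12-fold lower (adjusted p = 3.30e-10). *mt-Nd2* (chrM:3914-4951) ranged from 9886 to 19643 CPM in WT mice (median 16383) and from 2747 to 4552 CPM in OPA1 BKO mice (median 3497). This is a log2 fold change of -2.17 ± 0.13 (SE, adjusted p = 3.21e-09). Of the coding transcripts, *mt-Nd2* had the smallest change, and even so the lowest WT mouse was above the highest OPA1 BKO mouse. *mt-Nd4* (chrM:10167-11544) ranged from 23008 to 31456 CPM in WT mice (median 29181) and from 2899 to 5828 CPM in OPA1 BKO mice (median 4303). Its partner on the bicistronic mRNA, *mt-Nd4l* (chrM:9877-10173), ranged from 2108 to 3976 CPM in WT mice (median 3654) and from 391 to 747 CPM in OPA1 BKO mice (median 537). Both members of this mRNA were lower by nearly the same amount, with log2 fold changes of -2.73 ± 0.13 and -2.67 ± 0.13 (SE, adjusted p = 4.65e-10 and 4.63e-10). *mt-Nd5* (chrM:11742-13565), the longest coding gene, ranged from 6619 to 13239 CPM in WT mice (median 10542) and from 1250.3 to 3005 CPM in OPA1 BKO mice (median 1885). Its log2 fold change was -2.39 ± 0.17 (SE, adjusted p = 3.17e-08).

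*mt-Nd6* (chrM:13552-14070) is the only coding gene read from the light-strand transcript. It ranged from 2706 to 4388 CPM in WT mice (median 3609) and from 416 to 1019 CPM in OPA1 BKO mice (median 676). Its log2 fold change of -2.39 ± 0.17 (SE, adjusted p = 2.34e-08) lay between those of *mt-Nd1* and *mt-Co2*. Its 14 bases of overlap with *mt-Nd5* are on the opposite strand. The strand setting of the quantification is not given in the sources used here, so antisense reads of the heavy-strand transcript and reads of *mt-Nd6* cannot be told apart. How much of the *mt-Nd6* mRNA carries a poly(A) tail was not measured, and these libraries were made from polyadenylated RNA. The last complex I gene, *mt-Nd3* (chrM:9459-9806), is nearly identical to its nuclear copy and ranged from 811 to 1834 CPM in WT mice (median 1201) and from 105 to 314 CPM in OPA1 BKO mice (median 251) as deposited. With *Gm28438* added, it ranged from 2215 to 3482 CPM in WT mice (median 2975) and from 366 to 604 CPM in OPA1 BKO mice (median 445). The log2 fold change was -2.50 ± 0.26 (SE) as deposited and -2.66 ± 0.12 (SE) with the copy added (adjusted p = 1.90e-06 and 2.17e-10).

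*mt-Cytb* (chrM:14145-15288) encodes cytochrome b, the only mitochondrially encoded subunit of complex III. It ranged from 46916 to 71405 CPM in WT mice (median 52260.2) and from 5116 to 12493 CPM in OPA1 BKO mice (median 7894). It was 6.96-fold lower, and the log2 fold change was -2.80 ± 0.17 (SE, adjusted p = 4.71e-09). The 3 subunits of complex IV, cytochrome c oxidase, include *mt-Co1* (chrM:5328-6872), the catalytic subunit and the most abundant mitochondrial transcript. *mt-Co1* ranged from 95270.0 to 126039 CPM in WT mice (median 101783) and from 12496 to 28201 CPM in OPA1 BKO mice (median 18507). On the log2 scale the change was -2.54 ± 0.15 (SE) as deposited and -2.51 ± 0.15 (SE) with *Gm29216* added (adjusted p = 2.29e-09 and 3.59e-09), a difference smaller than either SE.

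*mt-Co2* (chrM:7013-7696), the subunit that takes electrons from cytochrome c, is matched base for base by its copy over the aligned stretch. As deposited, it was at 17587, 12510.4, 16906 and 12946 CPM in WT females and 16424, 13392, 41133 and 28606 CPM in WT males. It was at 3657, 2684, 6339.6 and 4582 CPM in OPA1 BKO females and 1937, 1220.4, 5852 and 1932 CPM in OPA1 BKO males. The genotypes did not overlap, but the third WT male and the third OPA1 BKO male stood above the others of their groups. With *Gm28661* added, the same mice were at 41561, 44366, 39145 and 36859 CPM in WT females and 43967, 48941, 54059 and 51762 CPM in WT males. The OPA1 BKO females were then at 8013, 8209, 7592 and 10388 CPM and the OPA1 BKO males at 6499, 5055, 8150.2 and 5434 CPM. In the sums the spread relative to the mean was smaller within each genotype, and the log2 fold change went from -2.49 ± 0.37 (SE, adjusted p = 7.37e-05) to -2.61 ± 0.15 (SE, adjusted p = 1.61e-09). *mt-Co3* (chrM:8607-9390) ranged with *Gm28437* added from 35086 to 53301 CPM in WT mice (median 41734) and from 4579.8 to 9237 CPM in OPA1 BKO mice (median 6859). The log2 fold change was -2.77 ± 0.21 as deposited and -2.66 ± 0.15 with the copy (SE, adjusted p = 6.88e-08 and 1.39e-09).

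Complex V, the ATP synthase, has 2 mitochondrially encoded subunits on 1 bicistronic mRNA, and only *mt-Atp6* has a nuclear copy. *mt-Atp6* (chrM:7927-8607), which forms part of the proton channel, had the largest change of the coding genes as deposited. It ranged from 15424 to 36109 CPM in WT mice (median 22290.3) and from 1473 to 4221 CPM in OPA1 BKO mice (median 2878). This is a log2 fold change of -3.19 ± 0.21 (SE), or 9.12-fold lower (adjusted p = 1.25e-08). With *Gm10925* added, *mt-Atp6* ranged from 27404 to 43296 CPM in WT mice (median 33199) and from 3891 to 6958 CPM in OPA1 BKO mice (median 5358). The log2 fold change was -2.70 ± 0.13 (SE), or 6.49-fold lower (adjusted p = 3.81e-10). *mt-Atp8* (chrM:7766-7969), which shares 13 of its 174 words of 31 bases with nuclear genes, ranged from 1389.6 to 4201 CPM in WT mice (median 1800.3) and from 209.6 to 459 CPM in OPA1 BKO mice (median 302). Its log2 fold change was -2.84 ± 0.22 (SE, adjusted p = 6.24e-08).

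**Figure D2:**
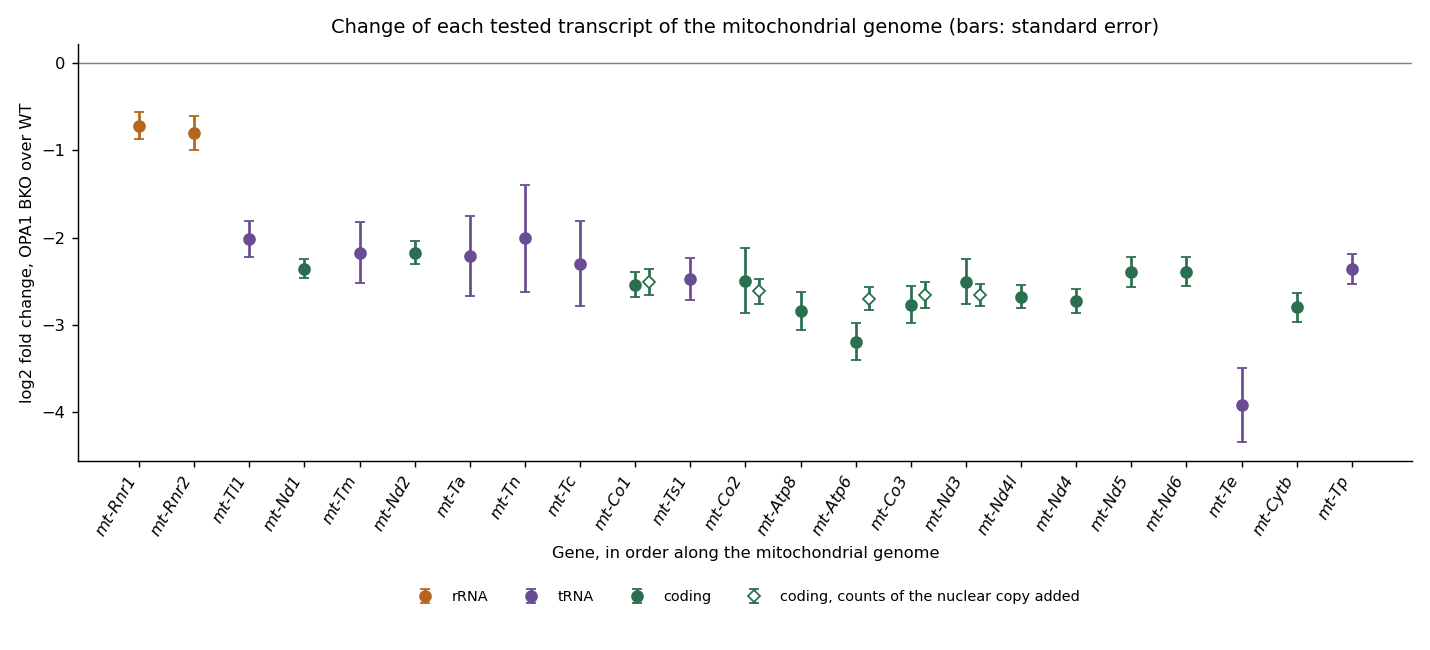
log2 fold changes of OPA1 BKO over WT with standard errors for the 23 tested genes of the mitochondrial genome, in genome order. Filled circles are values as deposited, green for coding, brown for rRNA and purple for tRNA, and open diamonds are the 5 coding genes with the counts of their nuclear copy added. Coding genes lie between -2.17 and -3.19, and *mt-Rnr1* and *mt-Rnr2* lie at -0.72 and -0.80.

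The 12 coding genes of the heavy-strand transcript were compared by their order from *mt-Nd1* to *mt-Cytb*. Across these genes, the Pearson correlation of order with log2 fold change was -0.41 as deposited (Spearman's rho -0.40) and -0.60 with copies added (rho -0.54), so the larger changes lay further along on average. These are descriptions across genes of the same 16 libraries, and the genes are not independent. The correlation of the change with GC content over the 13 genes was -0.0026 as deposited, and that with length was 0.25. The range between the smallest and the largest change among coding genes was 1.02 log2 units as deposited and 0.67 with copies added.

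Per length, *mt-Co1* was the highest coding transcript in both genotypes, at 64616 ± 4509 TPM (SD, n = 8) in WT mice against 22064 ± 5619.5 TPM (SD, n = 8) in OPA1 BKO, as the authors' TPM give it. *mt-Cytb* came second, at 46757 ± 4617 TPM (SD, n = 8) and 13128 ± 3151 TPM (SD, n = 8). *mt-Nd5* was the lowest in both, at 5253 ± 1038 TPM (SD, n = 8) and 1974 ± 458 TPM (SD, n = 8), and *mt-Nd3*, at 5746 ± 1882 TPM (SD, n = 8) and 2058 ± 690.1 TPM (SD, n = 8), did not differ from it beyond their spread as deposited. With *Gm28438* added, *mt-Nd3* was at 13317 ± 1466 TPM (SD, n = 8) in WT mice and 4175 ± 614 TPM (SD, n = 8) in OPA1 BKO, without overlap with *mt-Nd5* in either genotype. *mt-Atp6*, *mt-Co3*, *mt-Co2* and *mt-Atp8* followed *mt-Cytb* in both genotypes, as means, with ranges over mice that overlapped each other and that of *mt-Cytb*. With their full-length copies added, the means of *mt-Co2*, *mt-Co3* and *mt-Atp6* stood above that of *mt-Cytb* in both genotypes. Only the range of *mt-Co2* in WT mice did not overlap that of *mt-Cytb*. In WT mice *mt-Co2*, *mt-Co3* and *mt-Atp6* were then at 72347 ± 4580.1 TPM (SD, n = 8), 57758 ± 6856 TPM (SD, n = 8) and 56356 ± 7243 TPM (SD, n = 8). Below them came *mt-Nd4l*, *mt-Nd1* and *mt-Nd4* at 21004 ± 3896 TPM (SD, n = 8), 20861 ± 2292 TPM (SD, n = 8) and 19285 ± 1353 TPM (SD, n = 8) in WT mice, which did not differ beyond their spread, then *mt-Nd2* at 15534 ± 2837 TPM (SD, n = 8) and the light-strand *mt-Nd6* at 8446 ± 1299.8 TPM (SD, n = 8). The TPM of *mt-Rnr1* and *mt-Rnr2* in these poly(A) libraries were 1925 ± 457 TPM (SD, n = 8) and 1540.4 ± 496 TPM (SD, n = 8) in WT mice. In OPA1 BKO they were 2289.9 ± 482 TPM (SD, n = 8) and 1726 ± 416 TPM (SD, n = 8). These are shares of polyadenylated RNA and not amounts of rRNA in the tissue. TPM divide counts by effective lengths, which are shorter than the genes. They were 57.6 to 63.9 of 204 bases in *mt-Atp8* and 130.8 to 146.0 of 297 bases in *mt-Nd4l*. The ranks of these short genes rest on that correction.

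The division of counts between gene and copy varied widely between mice of 1 group. Of the counts of a pair, the mitochondrial gene received 24.1% to 83.5% for *mt-Co2*, 34.7% to 94.2% for *mt-Atp6* and 44.97% to 90.1% for *mt-Co3* over the 16 mice. It received 28.5% to 67.0% for *mt-Nd3* and 75.9% to 88.9% for *mt-Co1*. For *mt-Nd4l* and *mt-Nd4* it received all of them, since *Gm10222* and *Gm28439* had 0 counts in every mouse. The coefficient of variation of *mt-Co2* fell from 50.1% to 13.4% in WT and from 54.2% to 23.2% in OPA1 BKO mice when the copy was added. That of *mt-Nd3* fell from 34.4% to 14.8% and from 33.8% to 16.4%. That of *mt-Co1* did not fall in WT mice, at 9.75% and 10.2%. The 5 copies with counts were themselves called lower in OPA1 BKO mice, with log2 fold changes from -1.95 ± 0.27 in *Gm10925* to -2.82 ± 0.14 in *Gm28438* (SE), and in 3 of 5 the genotypes did not overlap. Over all genes tested, 20.2% were called lower, and 4.89% had every OPA1 BKO mouse below every WT mouse. The copies share 97.2% to 100% of their words with the mitochondrial genes, so these calls are not separate from those of the genes. Whether any of these counts come from the nuclear block was not tested.

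**Figure D3:**
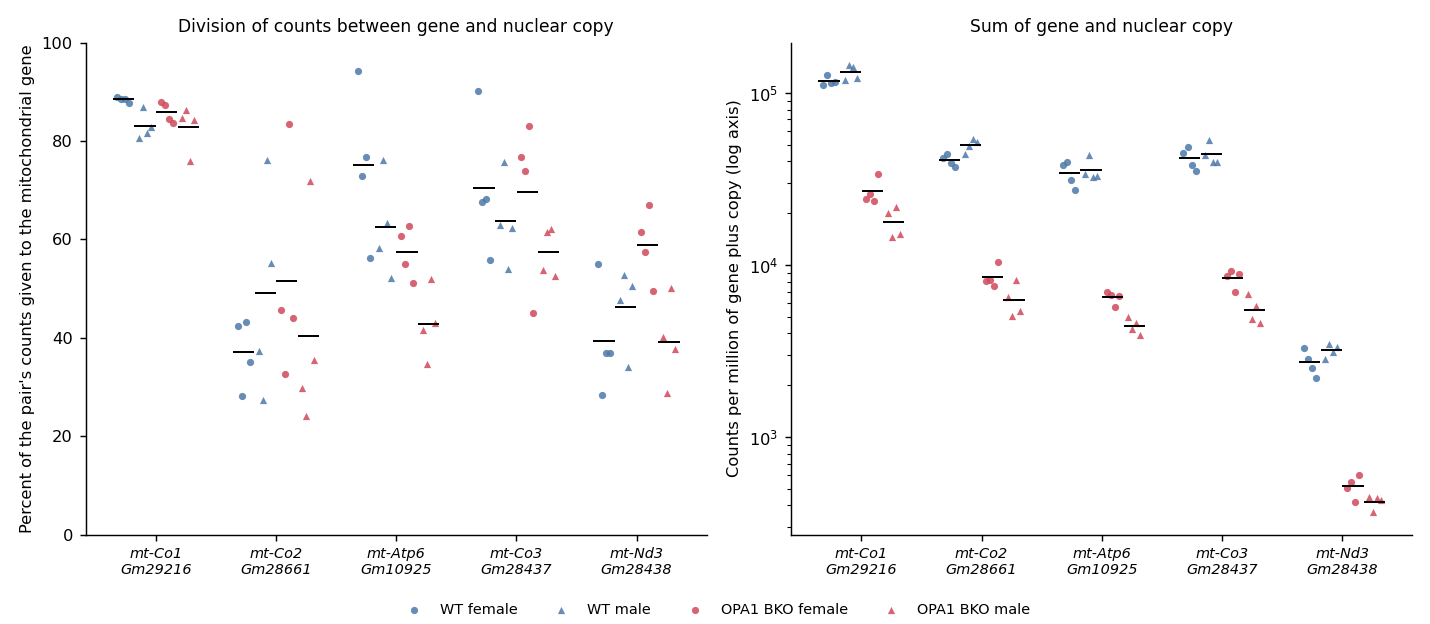
Left, the percent of the counts of each gene and its nuclear copy that were given to the mitochondrial gene, in each mouse. Right, CPM of gene plus copy on a log axis, circles for females, triangles for males, bars for group means. The division for *mt-Co2* runs from 24.1% to 83.5%, while the sums keep the genotypes apart in all 5 pairs.

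In these libraries of polyadenylated RNA, the rRNA transcripts changed far less than the coding ones. Their values describe the rRNA that was captured and not its amount in the tissue, and how much of the rRNA carries a poly(A) tail was not measured. *mt-Rnr1*, the 12S rRNA of the small ribosomal subunit (chrM:70-1024), was at 1883, 2166, 1436 and 1666 CPM in WT females and 2384, 2289, 1245 and 1445 CPM in WT males. It was at 1328, 1173, 1317 and 1082 CPM in OPA1 BKO females and 926, 859, 824 and 1360.5 CPM in OPA1 BKO males. The genotypes overlapped, and the log2 fold change was -0.72 ± 0.15 (SE, adjusted p = 0.00138). *mt-Rnr2*, the 16S rRNA of the large subunit (chrM:1094-2675), ranged from 1436 to 4055 CPM in WT mice (median 2391) and from 1144 to 1977 CPM in OPA1 BKO mice (median 1434). The genotypes overlapped, and the log2 fold change was -0.80 ± 0.20 (SE, adjusted p = 0.00421). These values rest on the scaling, because scaling by library size moved the median of all genes to 0.57 and TPM moved it to 0.81. Under library size the changes were -0.16 and -0.24, and under limma on log2(TPM + 0.5) they turned to 0.26 and 0.20, none of them called. Relative to the median of all genes they were -0.73 and -0.81 under TMM, -0.72 and -0.80 under library size and -0.55 and -0.62 in TPM.

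The ratio of rRNA to coding counts within a mouse needs no scaling between mice, but it too describes captured RNA. Whether capture of the rRNA differed between the genotypes was not tested. On the log2 scale it was -6.22 ± 0.48 in WT mice against -4.34 ± 0.44 in OPA1 BKO mice (SD, n = 8 each). It ran from -7.10 to -5.48 in WT and from -5.01 to -3.51 in OPA1 BKO mice, with no overlap between the genotypes. The ratio was 3.69-fold higher in OPA1 BKO mice (exact permutation test, p = 0.00016, adjusted p = 0.000435 over 14 measures), and 3.61-fold higher with copies added. The log2 ratio of *mt-Rnr2* to *mt-Rnr1* was 0.49 ± 0.20 in WT mice against 0.43 ± 0.14 in OPA1 BKO mice (SD, n = 8 each) (exact permutation test, p = 0.496, adjusted p = 0.563).

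Of the 22 tRNA genes, 8 passed the filter on low counts. All 8 were called lower in OPA1 BKO mice, in 4 of them without overlap of the genotypes. Of all genes tested, 20.2% were called lower, and in 4.89% every OPA1 BKO mouse was below every WT mouse. A gene passes the filter when 4 mice reach the minimum count, so a tRNA could enter through WT mice alone. The direction shared by the 8 may in part reflect the filter. Mature tRNAs carry no poly(A) tail and are shorter than most fragments, so the counts of these genes are no measure of mature tRNA. *mt-Tp* (proline), the last gene before the control region, held 73.6% of all tRNA counts in WT and 74.8% in OPA1 BKO mice. Its sequence (chrM:15356-15422, minus strand, with no part in capitals) is shown because so much of the tRNA signal rests on it.
mt-Tp: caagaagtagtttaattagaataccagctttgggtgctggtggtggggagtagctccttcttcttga
*mt-Tp* had 1576 to 3373 estimated counts in WT mice (median 2674.5) and from 499 to 1315 in OPA1 BKO mice (median 572.5). On the log2 scale the change was -2.36 ± 0.17 (SE, adjusted p = 4.37e-08). *mt-Ts1* (serine), which overlaps the end of *mt-Co1* on the opposite strand, had 505 to 789 estimated counts in WT mice (median 619) and from 46 to 234 in OPA1 BKO mice (median 160.0). This is a log2 fold change of -2.47 ± 0.24 (SE, adjusted p = 1.04e-06). *mt-Te* (glutamate), next to *mt-Nd6*, had the largest change of the 23 tested members at -3.91 ± 0.42 (SE, adjusted p = 3.03e-06). It had 18 to 127 estimated counts in WT mice (median 32.0) and from 1 to 6 in OPA1 BKO mice (median 3.0). *mt-Te* thus reached the minimum count through WT mice alone. The size of its change rests on few counts, and its rank may in part reflect the filter. *mt-Tl1* (leucine), which separates *mt-Rnr2* from *mt-Nd1* on the heavy-strand transcript, had 33 to 56 estimated counts in WT mice (median 44.0) and from 6 to 28 in OPA1 BKO mice (median 15.5). Its log2 fold change was -2.02 ± 0.21 (SE, adjusted p = 1.90e-06).

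The other 4 tested tRNAs were *mt-Tm* (methionine) at -2.17 ± 0.35, *mt-Tc* (cysteine) at -2.30 ± 0.48, *mt-Ta* (alanine) at -2.21 ± 0.46 and *mt-Tn* (asparagine) at -2.01 ± 0.61 (log2 fold change and SE, adjusted p from 0.000144 to 0.0153). *mt-Tm* had 8 to 49 estimated counts in WT mice (median 24.0) and from 3 to 14 in OPA1 BKO mice (median 7.0). *mt-Tc* had 10 to 212 estimated counts in WT mice (median 95.0) and from 0 to 51 in OPA1 BKO mice (median 24.0). *mt-Ta* had 1 to 23 estimated counts in WT mice (median 11.5) and from 0 to 5 in OPA1 BKO mice (median 3.50). *mt-Tn* had 3 to 71 estimated counts in WT mice (median 20.5) and from 0 to 25 in OPA1 BKO mice (median 6.0). In *mt-Tm*, *mt-Tc*, *mt-Ta* and *mt-Tn* the genotypes overlapped, and *mt-Tn* was not called within females or males alone. Among the 8 tested, 6 belong to the light strand and 2 to the heavy strand, and light-strand tRNAs held 97.1% of tRNA counts in WT and 96.8% in OPA1 BKO mice. As for *mt-Nd6*, the strand setting is not known. Reads of light-strand tRNAs such as *mt-Tp* and *mt-Ts1* cannot be told apart from antisense reads of the heavy-strand transcript. The 14 tRNAs that were not tested, 12 of the heavy and 2 of the light strand, reached at most 26 estimated counts in a WT mouse and 7 in an OPA1 BKO mouse, and 3 of them had no count in any OPA1 BKO mouse. Those 3 were *mt-Tf* (phenylalanine), *mt-Tg* (glycine) and *mt-Tr* (arginine), with 3, 35 and 10 counts over the 8 WT mice, and a count of 0 in a mouse allows up to 3. Without the filter on low counts, 14 of the 22 were called lower.

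Coding transcripts also shifted a little against each other. With copies added, complex III (*mt-Cytb*) took 14.1% ± 1.30 in WT mice against 12.02% ± 1.30 in OPA1 BKO mice (SD, n = 8 each) of the coding counts (exact permutation test, p = 0.00777, adjusted p = 0.0162). Complex IV took 54.7% ± 1.95 in WT mice against 55.3% ± 1.84 in OPA1 BKO mice (SD, n = 8 each). Complex V took 9.53% ± 1.13 in WT mice against 8.82% ± 0.916 in OPA1 BKO mice (SD, n = 8 each). Neither passed the test (exact permutation test, adjusted p = 0.600 and 0.292). Complex I took 21.7% ± 1.88 in WT mice against 23.8% ± 1.93 in OPA1 BKO mice (SD, n = 8 each), which missed the threshold (exact permutation test, p = 0.0390, adjusted p = 0.0683). As deposited, complex I was higher at 25.8% ± 1.34 in WT mice against 29.3% ± 3.03 in OPA1 BKO mice (SD, n = 8 each). Complex V was lower at 8.24% ± 2.16 in WT mice against 5.76% ± 0.992 in OPA1 BKO mice (SD, n = 8 each) (exact permutation test, adjusted p = 0.0145 for both). The genotypes overlapped in all 4 shares in both versions. As deposited the share of *mt-Cytb* was lower with an adjusted p of 0.0444 by the same test, and it lost its call in 10 of 16 rounds that left out 1 mouse. Among single genes with copies added, *mt-Nd4* took 6.87% to 7.74% of coding counts in WT mice and, without overlap, 6.30% to 6.72% in OPA1 BKO mice, a pattern picked after its values were seen and not tested.

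The ratio of *mt-Nd1*, near the start of the heavy-strand transcript, to *mt-Cytb*, near its end, was higher in OPA1 BKO mice. Its log2 value was -1.47 ± 0.21 in WT mice against -1.003 ± 0.34 in OPA1 BKO mice (SD, n = 8 each), a 1.38-fold difference with overlapping genotypes (exact permutation test, p = 0.00808, adjusted p = 0.0145). Neither gene has a nuclear copy above the limit. For *mt-Nd4l* and *mt-Nd4*, which share 1 mRNA, the log2 ratio was -3.03 ± 0.24 in WT mice against -2.96 ± 0.16 in OPA1 BKO mice (SD, n = 8 each), which did not pass the test (exact permutation test, p = 0.522, adjusted p = 0.563). The log2 ratio of *mt-Atp8* to *mt-Atp6* depended on the copy. As deposited it was higher in OPA1 BKO mice by 0.38 (exact permutation test, p = 0.00855, adjusted p = 0.0145), and with *Gm10925* added it differed by -0.08 (exact permutation test, p = 0.682, adjusted p = 0.682). The light-strand *mt-Nd6* against the 6 heavy-strand complex I genes differed by 0.05 as deposited and 0.05 with copies added, both within the spread between mice (exact permutation test, adjusted p = 0.602 and 0.600).

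**Figure D4:**
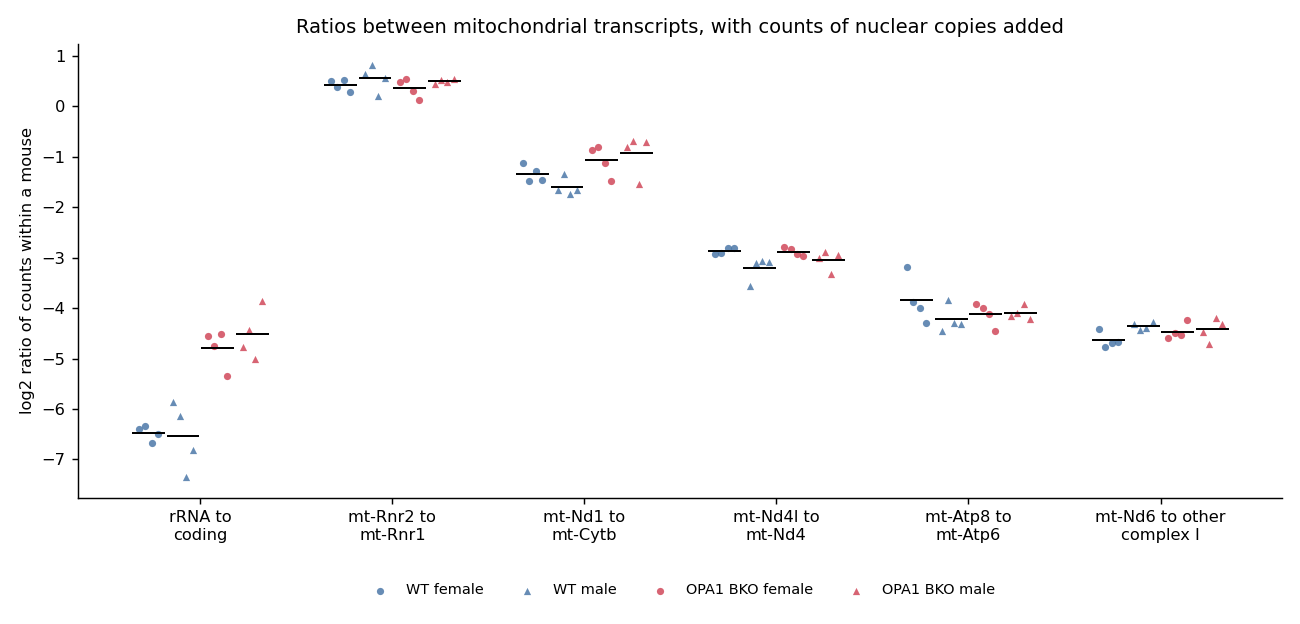
log2 ratios of counts within each mouse, with counts of nuclear copies added, circles for females, triangles for males, bars for group means. The genotypes separate in the ratio of rRNA to coding counts, where WT mice lie between -7.35 and -5.86 and OPA1 BKO mice between -5.35 and -3.86, and they overlap in the other 5 ratios.

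Within each sex all 13 coding genes were called lower, where 9.03% of all genes were called lower in females and 16.9% in males. The median log2 fold change of the 13 was -2.19 in females and -2.92 in males, beside 0.014 and 0.0044 over all genes tested. *mt-Co1* had log2 fold changes of -2.17 ± 0.15 in females and -2.91 ± 0.15 in males (SE), and *mt-Nd4* of -2.42 ± 0.15 and -3.04 ± 0.15 (SE). The point estimate was larger in males for all 13 genes, but edgeR called no member for the interaction of genotype and sex, where 0.115% of all genes tested were called. At an unadjusted p under 0.05 the interaction covered 10 of the 23 tested members and 13.1% of all genes tested. As deposited, DESeq2 called *mt-Co1* and *mt-Nd3* (interaction -0.74 and -1.29, adjusted p = 0.0110 and 0.0214), where it called 2.23% of all genes. With copies added, the edgeR interaction was -0.77 ± 0.21 in *mt-Co1* and -0.53 ± 0.19 in *mt-Nd3* (SE), and neither was called. The size of the interaction in *mt-Nd3* therefore depended on the copy. Without OPA1 BKO male 1, edgeR called *mt-Ts1* (interaction -1.52, adjusted p = 0.0487). *mt-Rnr1* and *mt-Rnr2* were called lower in males (-0.89 ± 0.21 and -1.02 ± 0.28, SE) and not in females (-0.55 ± 0.21 and -0.59 ± 0.28, SE), and their interaction was not called (adjusted p = 0.678 and 0.699).

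The nuclear genes that copy, transcribe and process the mitochondrial genome did not move as 1 group. Over 78 genes on 7 lists, 25 were higher, 17 lower and 36 did not pass the test, beside 20.8% and 20.2% of all genes, with a median log2 fold change of 0.07. Scaled by library size, the split was 69 higher and 0 lower where 69.5% of all genes were called higher, and by limma on log2(TPM + 0.5) it was 78 higher and 0 lower where 86.3% of all genes were called higher. Relative to the median of all genes, the list median was 0.06, 0.06 and 0.15 under the 3 scalings. Of 13 genes of DNA replication and the nucleoid, 7 rose and 3 fell, among them the exonuclease *Exog* (0.67 ± 0.14) and the helicase-nuclease *Dna2* (0.46 ± 0.14), which rose. The topoisomerase *Top1mt* (-0.41 ± 0.09) and the single-strand binding protein *Ssbp1* (-0.29 ± 0.08) fell (log2 fold change and SE, adjusted p from 0.000887 to 0.0159). *Tfam*, which packages the genome and starts its transcription, was at -0.10 ± 0.05 (SE, adjusted p = 0.160). Of 9 transcription genes only the initiation factor *Tfb2m* (-0.41 ± 0.07) fell and none rose, with the polymerase *Polrmt* at 0.04 ± 0.10 (SE, adjusted p = 0.000278 and 0.786).

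Of 26 genes of RNA processing and modification, 7 rose and 5 fell. Over all genes tested, 20.8% were called higher and 20.2% lower, which are the shares to set beside each list here. The falls named below rest on the TMM scaling, since library size and limma on log2(TPM + 0.5) each called 0 genes of these lists lower. The largest falls were in *Hsd17b10* (-0.75 ± 0.10), a subunit of mitochondrial RNase P, and *Trit1* (-0.72 ± 0.12), a tRNA isopentenyltransferase. The largest rises were in the tRNA methyltransferase *Nsun3* (0.42 ± 0.11) and the pseudouridine synthase *Pus1* (0.40 ± 0.08) (SE, adjusted p from 2.79e-05 to 0.00529). Of 8 genes of polyadenylation, stability and decay, 3 rose and 2 fell. The poly(A) polymerase *Mtpap* (0.45 ± 0.08) and the stabilising protein *Lrpprc* (0.33 ± 0.07) rose, while its partner *Slirp* (-0.47 ± 0.09) and the degradosome helicase *Supv3l1* (-0.38 ± 0.07) fell (SE, adjusted p from 0.000523 to 0.00131). Of 10 translation factors 3 rose and 3 fell, with the elongation factors *Tufm* (-0.52 ± 0.06) and *Tsfm* (-0.27 ± 0.05) the largest falls. The recycling factor *Mrrf* (0.24 ± 0.06) and the initiation factor *Mtif2* (0.21 ± 0.07) were the largest rises (SE, adjusted p from 4.17e-06 to 0.0310). Of 6 genes of nucleotide supply, the pyrimidine carrier *Slc25a33* (0.65 ± 0.11) rose, thymidine kinase *Tk2* (-0.42 ± 0.09), deoxyguanosine kinase *Dguok* (-0.26 ± 0.08) and *Mpv17* (-0.19 ± 0.05) fell. *Rrm2b* and *Slc25a36* were at 0.02 ± 0.11 and 0.16 ± 0.10 (SE, adjusted p = 0.881 and 0.238). Of 7 nuclear regulators of mitochondrial biogenesis, 4 rose and none fell, led by the transcription factors *Nrf1* (1.097 ± 0.09) and *Gabpa* (0.74 ± 0.09) (SE, adjusted p = 8.53e-08 and 1.02e-05).

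Nuclear genes for the same 4 complexes, and for complex II, were mostly lower but by much less than the mitochondrial ones. Of 79 nuclear OXPHOS subunit genes, 71 were lower and 2 higher, beside 20.2% and 20.8% of all genes, with a median log2 fold change of -0.57. Library size scaling gave 18 lower and 16 higher, where 2.39% of all genes were called lower, and limma on log2(TPM + 0.5) gave 1 lower and 61 higher, where 0.761% were called lower. Relative to the median of all genes the list median was -0.58, -0.58 and -0.43 under TMM, library size and TPM. In complex I, 35 of 36 were lower, with *Ndufa1* (-1.20 ± 0.09) and *Ndufb3* (-1.02 ± 0.08) the most (SE, adjusted p = 6.24e-08 and 7.51e-08). In complex II, which has no mitochondrially encoded subunit, *Sdhb* (-0.47 ± 0.08), *Sdhc* (-0.54 ± 0.05) and *Sdhd* (-0.76 ± 0.08) fell, and *Sdha* was at -0.20 ± 0.09 (SE, adjusted p = 0.0897). All 9 of complex III were lower, led by *Uqcr11* (-1.08 ± 0.09) and *Uqcrh* (-0.92 ± 0.08), and 13 of 14 of complex IV, led by *Cox6c* (-1.11 ± 0.09) and *Ndufa4* (-1.08 ± 0.09) (SE, adjusted p from 9.00e-08 to 1.64e-07). The other complex IV gene, *Cox6a2*, named after its value was seen and whose product is the heart and muscle form of its subunit, was at 1.99 ± 0.79 and did not pass the test (SE, adjusted p = 0.0532). In complex V, 11 of 16 were lower, led by *Atp5k* (-0.95 ± 0.11) and *Atp5e* (-0.86 ± 0.09), and *Atp5g1* (1.08 ± 0.39) and the inhibitor *Atpif1* (0.50 ± 0.15) were higher (SE, adjusted p from 3.70e-06 to 0.0358).

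Within each mouse, the summed counts of nuclear-encoded subunits were divided by those of the mitochondrially encoded subunits of the same complex. With copies added, the log2 ratio for complex I was -2.56 ± 0.27 in WT mice against -0.66 ± 0.27 in OPA1 BKO mice (SD, n = 8 each). For complex III it was -2.93 ± 0.16 in WT mice against -0.70 ± 0.38 in OPA1 BKO mice (SD, n = 8 each). For complex IV it was -4.16 ± 0.17 in WT mice against -2.30 ± 0.38 in OPA1 BKO mice (SD, n = 8 each). For complex V it was -1.40 ± 0.22 in WT mice against 0.98 ± 0.34 in OPA1 BKO mice (SD, n = 8 each). The genotypes did not overlap in any of the 4 complexes, and the ratio was 3.72-fold, 4.71-fold, 3.63-fold and 5.21-fold higher in OPA1 BKO mice (exact permutation test, p = 0.00016 and adjusted p = 0.000435 for each). In complex V the log2 ratio was above 0 in every OPA1 BKO mouse and below 0 in every WT mouse. As deposited, the complex V ratio was 6.94-fold higher.

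**Figure D5:**
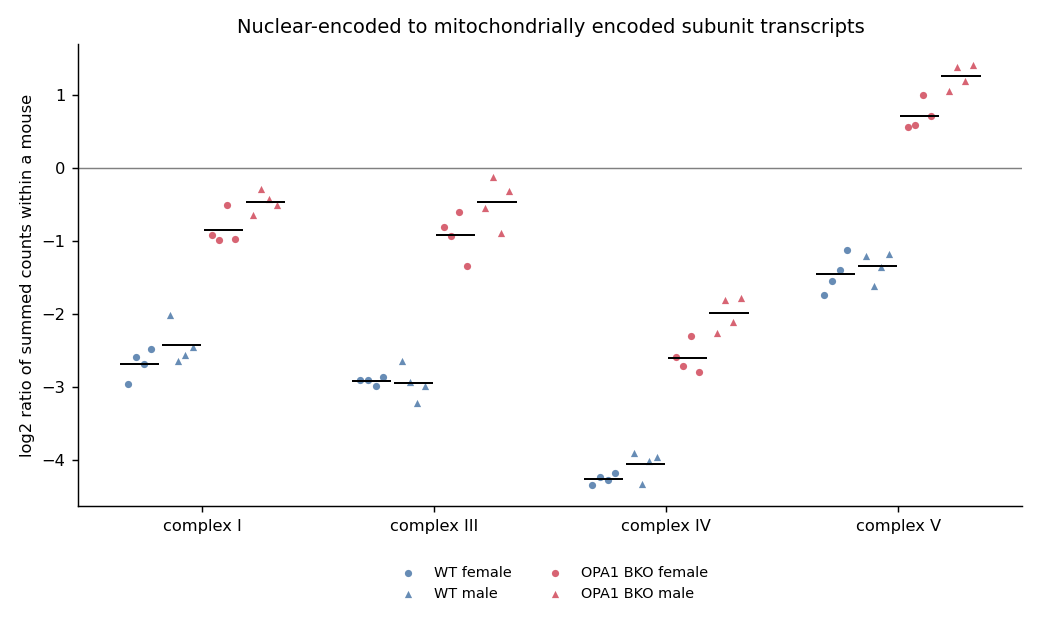
log2 ratio of summed counts of nuclear-encoded to mitochondrially encoded subunits for complexes I, III, IV and V in each mouse, with counts of nuclear copies added, circles for females, triangles for males, bars for group means. Every OPA1 BKO mouse lies above every WT mouse in each complex, and in complex V the OPA1 BKO mice lie between 0.55 and 1.41, above the line at 0.

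Markers of the cell types in the tissue were set beside these values. Over all genes tested, 20.8% were called higher and 20.2% lower, which are the shares to set beside each list. Of 10 brown adipocyte markers 1 was higher and 3 lower, which is near those shares. The 1 higher was *Elovl3*, a fatty acid elongase, at 6.94 to 22.7 CPM in WT and from 35.9 to 259.6 CPM in OPA1 BKO mice, with no overlap of the genotypes and a change of 2.99 ± 0.42 (log2 and SE, adjusted p = 3.68e-05). The 3 lower were *Cidea* (-0.43 ± 0.10), *Cox7a1* (-0.54 ± 0.10) and *Cox8b* (-0.78 ± 0.13) (adjusted p from 0.000164 to 0.00313), and the changes of *Cidea* and *Cox7a1* were smaller than the shift of 0.57 that library-size scaling gave all genes. *Ucp1*, the uncoupling protein that defines these cells and the most abundant of these markers, was at 3187 to 6815 CPM in WT and from 2011 to 5373 CPM in OPA1 BKO mice. On the log2 scale the change was -0.46 ± 0.20 (SE, adjusted p = 0.0738). The summed brown adipocyte markers ranged from 6864 to 11183 CPM in WT and from 4259 to 8501 CPM in OPA1 BKO mice. The sum of the 7 general adipocyte markers, of which 4 were lower and 1 higher, ranged from 12837 to 17485 CPM in WT and from 7980.1 to 11481 CPM in OPA1 BKO mice. *Fabp4*, the most abundant of them, was at -0.80 ± 0.10 (log2 fold change and SE, adjusted p = 1.42e-05), and the hormone gene *Adipoq* was at -1.38 ± 0.16 (adjusted p = 8.67e-06). The markers other than the most abundant of each list were named after their values were seen. Macrophage markers were higher in 7 of 8, with a sum of 96.5 to 136 CPM in WT and from 128 to 528 CPM in OPA1 BKO mice. *Lyz2*, the most abundant of them, was at 37.9 to 51.4 CPM in WT and from 57.7 to 313 CPM in OPA1 BKO mice. Skeletal muscle markers passed the test in 0 of 9 with edgeR and in 0 of 9 at an unadjusted p under 0.05. Their sum varied from 19.8 to 6504 CPM in WT and from 3.21 to 15608 CPM in OPA1 BKO mice. Of 6 endothelial markers 3 were lower (*Pecam1* (-0.34 ± 0.07), *Cdh5* (-0.38 ± 0.08) and *Tek* (-0.41 ± 0.09)) with sums from 762 to 1073 CPM in WT and from 636 to 869.9 CPM in OPA1 BKO mice. Of 6 fibroblast and preadipocyte markers 3 were higher (*Pdgfra* (0.49 ± 0.14), *Col1a1* (0.62 ± 0.21) and *Col3a1* (0.50 ± 0.16)) with sums from 465 to 727 CPM in WT and from 503 to 1030.2 CPM in OPA1 BKO mice. Of 8 lymphocyte markers, the pan-leukocyte *Ptprc* (0.91 ± 0.13) was higher and 3 were lower, with sums from 10.4 to 18.2 CPM in WT and from 12.3 to 18.7 CPM in OPA1 BKO mice. *Ms4a1* was at 0 in 1 OPA1 BKO mouse, and every other marker on these lists had counts in every mouse. The part of cell makeup in the mitochondrial transcripts was not tested.

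Residual *Opa1* was compared with the summed coding transcripts across the 8 mice of each genotype, on the log2 CPM scale, with p-values adjusted over the 2 genotypes. In WT mice Pearson's r was -0.11 (permutation p = 0.778, adjusted p = 0.778). Spearman's rho was -0.07 (permutation p = 0.882, adjusted p = 0.882). In OPA1 BKO mice Pearson's r was 0.65 (permutation p = 0.0879, adjusted p = 0.176). Spearman's rho was 0.74 (permutation p = 0.0458, adjusted p = 0.0917). Without the 2 mice farthest from the median of *Opa1*, r was 0.28 in WT and 0.35 in OPA1 BKO mice (n = 6 each). It passed the threshold before adjustment without OPA1 BKO female 1 (r = 0.81, permutation p = 0.0359). Within each sex there were 4 mice, too few for a correlation, and the mitochondrial shares of counts of OPA1 BKO females and males did not overlap.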

How the data were processed

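RNA from brown adipose tissue of 16 mice was sequenced as stranded libraries of polyadenylated RNA. The deposited files hold estimated counts and TPM per transcript, which the authors made with kallisto 0.45.0 against mouse transcripts (mm10 per the labels). Estimated counts were summed per gene with GENCODE M21, which matched 133284 of 135308 transcripts, and the others held 0.483% to 0.730% of counts. Counts were rounded and tested with edgeR 4.0.16 (R 4.3.3; filterByExpr over the 4 groups with a minimum count of 10 and total of 15, TMM scaling, quasi-likelihood test with sex in the model, Benjamini-Hochberg adjustment). The code of the model was run on simulated counts with as many rises as falls, which does not test the scaling of these data. Effects within each sex and the interaction came from a model with 4 group means. Shares and log2 ratios within a mouse were compared by exact two-sided permutation tests (SciPy 1.17.1), adjusted over 14 measures and over 3 shares.

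The 37 genes, the lists and the tests were chosen with earlier results of these data known. All coding and rRNA genes, tRNA genes that passed the filter, nuclear copies above 1 CPM and, from each list other than the marker lists, the 2 largest rises and falls among called genes are named, as is the most abundant marker of a marker list. The alternatives were DESeq2 1.42.0, its size factors, library size, nuclear genes for scaling, no filter, limma 3.58.1 on log2(TPM + 0.5), copies left out, no term for sex and leaving out each mouse. Counts with copies summed were added after seeing the data. Nothing in the labels says how mice share litters, so p-values measure the spread between these mice. Ensembl release and strand setting of the quantification are not given in the sources used here. Reads that span 2 genes of a polycistron match no single transcript over their whole length, and how many of them were counted was not tested.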

Additional observations from a re-analysis of the deposited data

Results flagged for a closer look

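In groups of 4 mice, 11 of 164 sets of values had 1 mouse far from the other 3, by Dixon's test, where chance gives about 1 in 20. Among coding genes as deposited, *mt-Co2* was at 5852 CPM in OPA1 BKO male 3 (others 1220.4 to 1937), *mt-Atp8* at 3039 CPM in WT male 2 (others 1541 to 1651) and *mt-Nd3* at 1818 CPM in WT female 1 (others 811 to 929). *mt-Rnr2* was at 1977 CPM in OPA1 BKO male 4 (others 1144 to 1256). *mt-Tl1* was at 0.902 CPM in the same mouse (others 0.365 to 0.413). *mt-Ta* was at 0 CPM in OPA1 BKO male 3 (others 0.147 to 0.155). The share of complex III in the coding counts was 17.1% in OPA1 BKO female 4 (others 13.04% to 13.57%), and that of complex IV was 54.8% in OPA1 BKO female 3 (others 50.5% to 50.8%). The log2 ratio of *mt-Nd4l* to *mt-Nd4* was -3.55 in WT male 1 (others -3.10 to -3.06), and that of *mt-Nd1* to *mt-Cytb* was -1.55 in OPA1 BKO male 3 (others -0.81 to -0.68). The log2 ratio of nuclear to mitochondrial complex I subunits was -0.49 in OPA1 BKO female 3 (others -0.98 to -0.91).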

How the results depend on the processing

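All 13 coding genes were called lower under every alternative run, and 910 comparisons of a main result with an alternative kept its direction and its side of the threshold. In 34 a call was lost, in 2 one was gained, in 1 the direction turned and in 40 a count or median moved. Among results for single genes, 977 were unchanged in this sense, 5 lost a call and 2 turned. Library size and limma on log2(TPM + 0.5) gave a median coding change of -1.98 and -1.62, called 0 and 0 rRNA genes, and called 69 and 78 genes of mitochondrial gene expression higher with 0 and 0 lower. The same scalings called 16 and 61 nuclear OXPHOS genes higher and 18 and 1 lower. Limma turned *mt-Rnr1* and *mt-Rnr2* to 0.26 and 0.20 and called 5 tRNA genes. Library size called 0 rRNA genes in males. DESeq2 called 1 rRNA gene lower in females and 2 members for the interaction. Without the filter on low counts 14 tRNA genes and 11 genes of mitochondrial gene expression were called lower. The cause of these differences was not tested beyond the shift of all genes.

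Within females and males alone, 4 mice against 4 cannot give a p below 0.0286, and no balance measure passed after adjustment. The differences were 1.12 and 5.75 percentage points for the share of complex I, -2.02 and -2.41 for III and -2.68 and -2.28 for V. In log2 units they were 1.70 and 2.07 for rRNA to coding, 0.0910 and 0.671 for *mt-Atp8* to *mt-Atp6*, 0.2701 and 0.666 for *mt-Nd1* to *mt-Cytb*, and for nuclear to mitochondrial subunits 1.82 and 1.96 (complex I), 1.99 and 2.48 (III), 1.63 and 2.12 (IV) and 2.50 and 3.09 (V). From TPM, the shares of complexes III and V differed by -1.48 and -4.00 points and were not called. With copies added, complexes I and V differed by 2.15 and -0.710 points, not called, and *mt-Atp8* to *mt-Atp6* turned to -0.0766.

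Leaving out each mouse in turn gave 0 to 1 members for the interaction (*mt-Ts1* without OPA1 BKO male 1) and 1 to 3 nuclear OXPHOS genes higher. It gave -2.66 to -1.89 points for the share of complex III, not called in 10 of 16 rounds. For complex IV it gave 0.576 to 2.01 points, called without OPA1 BKO male 4 (exact permutation test, adjusted p = 0.0453), and for the correlation of *Opa1* with coding transcripts in OPA1 BKO mice r = 0.536 to 0.809. No paired analysis was possible because the labels give the mice no replicate numbers, and the numbers used here only name mice within a group. With 0 to 7 counts per OPA1 BKO mouse, depth limits the 14 untested tRNA genes.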
